A study of Mus musculus with 26 samples.

Results

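The effect of tumor necrosis factor (TNF) after 48 h was read from 3 arrays of TNF-treated NSPs and 3 arrays of untreated NSPs, out of 26 arrays in the series. All 23410 probe sets with a gene symbol were taken, out of 35556 probe sets on the array. Of these, 21789 carry 1 symbol and 1621 carry several, and genes are named here only from the probe sets with 1 symbol. NSPs are neurospheres, floating cultures of neural stem cells, here grown from the ventricular zone of E14 C57BL/6J mouse embryos. The TNF-treated NSPs were plated on poly-L-ornithine in DMEM with fetal bovine serum and received TNF at 50 ng/mL from the start of differentiation, for 48 h. The untreated NSPs, labelled control or FCS, were plated in the same serum medium for 48 h without TNF. Serum, which drives the cells toward astrocytes, was thus present in both groups, and neither group holds adult astrocytes. The submitters call their replicates biological, and the sources used here do not say whether a replicate stands for 1 embryo, litter or pool. Each value rests on 3 TNF-treated and 3 untreated arrays, and this small number limits its precision.

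TNF binds the receptor TNFR1, which recruits adaptors and ubiquitin ligases and switches on the IKK kinase. IKK marks the IκB inhibitors for degradation, and NF-κB dimers then enter the nucleus and bind κB sites in their target genes. Among these targets are the inhibitors themselves, so that the pathway limits its own activity, and many genes of chemokines, adhesion molecules and antigen presentation. In astrocytes this response is a hallmark of inflammation. Astrocytes also buffer potassium, take up transmitters and store glycogen, and the genes of these functions were read beside the inflammatory ones.

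All values are log2 signals, in which a difference of 1 is a 2-fold change, and the signal of one probe set cannot be set against that of another. A probe set passed the test, and is called higher or lower, when limma gave it a q-value under 0.05, adjusted over all 35556 probe sets. A log2 fold change is the mean of the TNF-treated arrays minus the mean of the untreated arrays, given with its standard error (SE). The 6 arrays had medians of 7.66 to 7.72 and correlated with each other at 0.974 to 0.992. The 10 astrocyte markers set to check the label of the cells had array means of 11.83 to 12.08 in TNF-treated NSPs and 12.26 to 12.38 in untreated NSPs. The 6 neural progenitor markers set beside them were also bright, at 11.21 to 11.33 with TNF and 11.33 to 11.55 without. Mural and fibroblast markers averaged 7.97 to 8.19 with TNF and 8.04 to 8.38 without. Microglia markers averaged 6.25 to 6.40 with TNF and 6.33 to 6.66 without, and endothelial markers 6.64 to 6.90 with TNF and 6.83 to 7.15 without. Neuron markers averaged 8.51 to 9.05 with TNF and 8.53 to 9.06 without, and markers of the oligodendrocyte lineage 8.59 to 9.003 with TNF and 8.61 to 9.13 without. In none of these lists did a marker pass the test. The values came with no detection calls, so that probe sets with a group mean under 5.45, the 10th percentile, are called dim, and whether they exceed background is not known. In such bulk samples, fewer cells of a type and less RNA per cell cannot be told apart.

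At 48 h, 241 probe sets were higher and 92 were lower with TNF. These are 1.03% and 0.393% of the probe sets with a symbol, and 226 genes were named by the higher and 79 by the lower ones. Of the higher probe sets, 106 had a log2 fold change of at least 1 and 25 of at least 2, while of the lower ones 22 fell by at least 1 and 2 by at least 2. The median over all probe sets with a symbol was −0.0366. In all 333 called probe sets the TNF-treated arrays lay on one side of the untreated arrays, a separation that 7.1% of all probe sets with a symbol showed upward and 6.91% downward. In a fit with the replicate number as a blocking term, called the blocked fit here, 416 probe sets were higher and 219 lower, and all 333 calls remained. In a fit of the 6 arrays alone 135 were higher and 42 lower, of which 121 and 31 were called over all arrays too. Without 1 array the counts ran from 129 to 267 higher and from 27 to 131 lower, and the lowest came without replicate 2 of TNF-treated NSPs (129 and 27). With 1 probe set for each gene, 104 of 223 higher and 18 of 75 lower genes kept their call without each of the 6 arrays. The 131 lower probe sets, found without replicate 1 of TNF-treated NSPs, held only 63 of the 92. Without replicate 1 of untreated NSPs 129 were higher and 41 lower, without replicate 3 of untreated NSPs 142 and 50, and without replicate 3 of TNF-treated NSPs 153 and 70.

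**Figure D1:**
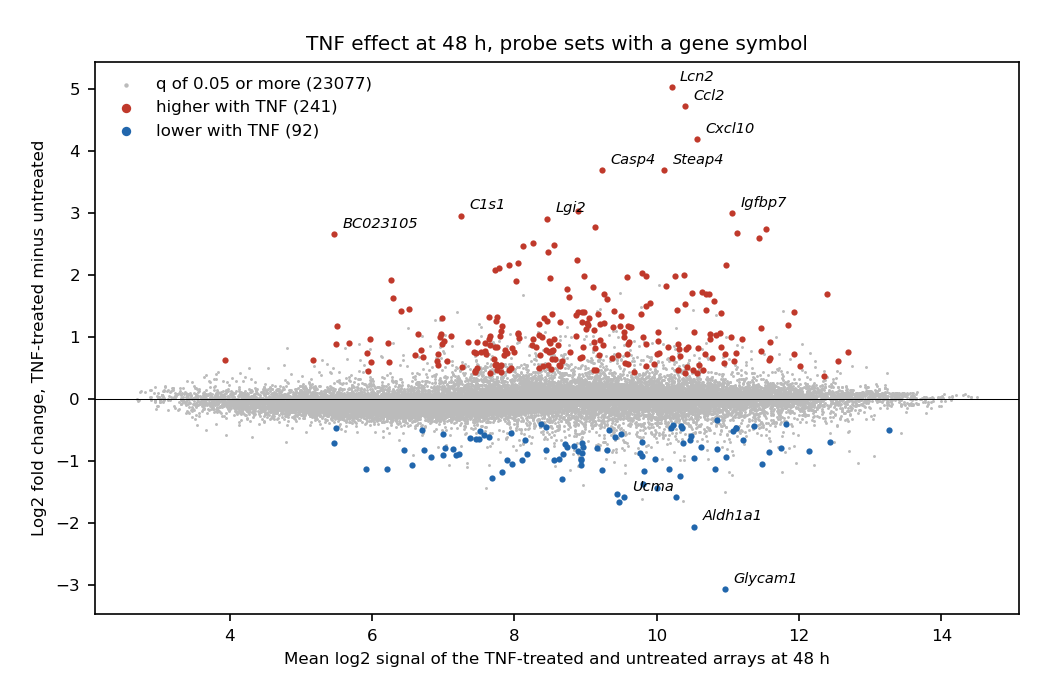
Log2 fold change at 48 h (TNF-treated minus untreated NSPs) against the mean log2 signal of the 6 arrays, for 23410 probe sets with a gene symbol. Red points are the 241 higher probe sets, blue points the 92 lower ones and gray points the rest. *Lcn2*, at 5.03, is the highest and *Glycam1*, at −3.07, the lowest.

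Inhibitors of NF-κB are among the genes that it induces. *Nfkbie*, on chromosome 17 of GRCm38.p6 (45555700 to 45563169), encodes IκBε, which holds NF-κB dimers in the cytoplasm. Its log2 signals were 9.85, 10.03 and 10.13 in TNF-treated NSPs, against 7.75, 7.82 and 7.69 in untreated NSPs. The groups were far apart, and *Nfkbie* rose by 2.25 (SE 0.128, q = 7.96e-10). *Tnfaip3*, which encodes the ubiquitin-editing enzyme A20 that switches the receptor complex off, had 9.27, 9.62 and 9.66 with TNF and 7.07, 7.13 and 6.80 without it, and rose by 2.51 (SE 0.161, q = 5.13e-09). *Tnip1*, which encodes a ubiquitin-binding partner of A20, had 9.35, 9.57 and 9.78 in TNF-treated and 8.29, 8.38 and 8.31 in untreated NSPs, and rose by 1.24 (SE 0.135, q = 8.04e-06). In both genes every TNF-treated array was above every untreated array. *Nfkbia*, which encodes IκBα, had 12.34, 12.57 and 12.50 in TNF-treated NSPs, against 9.85, 9.78 and 9.76 in untreated NSPs, and rose by 2.67 (SE 0.143, q = 3.14e-10). Of 21 measured feedback inhibitors 4 rose and 0 fell, with a median of 0.10 against −0.04 over all 19938 genes. Of all 19938 genes 1.12% rose and 0.376% fell, the shares to set beside each list count here and below. *Bcl3*, an atypical IκB protein, had 8.91, 8.85 and 8.84 with TNF and 8.13, 7.51 and 7.75 without it, which missed the threshold (1.07, SE 0.268, q = 0.0578) and passed in the blocked fit (q = 0.025).

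Of 4 measured NF-κB subunits, those of the non-canonical dimer rose. *Relb* had 9.09, 9.10 and 9.43 in TNF-treated and 7.82, 7.79 and 7.92 in untreated NSPs, a rise of 1.36 (SE 0.133, q = 2.01e-06). *Nfkb2*, which encodes p100, the precursor of p52, had 10.01, 10.23 and 10.24 in TNF-treated NSPs, against 8.78, 8.90 and 8.81 in untreated NSPs, a rise of 1.33 (SE 0.122, q = 9.54e-07). The p65 gene *Rela* missed the threshold, at 0.29 (SE 0.0914, q = 0.216), although its arrays do not overlap (10.44, 10.71 and 10.76 with TNF and 10.35, 10.37 and 10.32 without it). Upstream, 3 of 23 genes of the TNF receptor and IKK pathway rose and 0 fell. They were *Traf2*, an adaptor of the receptor (1.07, SE 0.115, q = 7.14e-06), *Birc2*, a ubiquitin ligase bound by TRAF2 (0.87, SE 0.171, q = 0.00954), and *Map3k8*, a kinase that links NF-κB to ERK (0.64, SE 0.136, q = 0.0182). Of the 2 probe sets of *Birc2* only 1 was called, though both had values above 0. The log2 signals of *Traf2* were 9.87, 10.05 and 10.31 in TNF-treated and 8.90, 8.99 and 9.12 in untreated NSPs, without overlap. The receptor itself, *Tnfrsf1a*, had 10.80, 11.18 and 11.17 in TNF-treated NSPs, against 10.89, 10.84 and 10.97 in untreated NSPs, a value of 0.15 (SE 0.221, q = 0.833) that did not pass the test. The test was no longer passed by *Birc2* without TNF-treated replicate 2 or untreated replicate 1 (0.82) and by *Map3k8* without TNF-treated replicate 2 or 3 or untreated replicate 1 or 3 (0.57 to 0.67).

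Promoters of the genes that rose are shown because κB sites can be read in them. In the 250 bases before the start of each gene, taken from RefSeq on GRCm38.p6, the NF-κB consensus was searched on both strands, together with the core of the interferon-stimulated response element, which reads TTTC, any 2 bases and TTTC. Windows were found for 170 of the 226 genes that rose and 62 of the 79 that fell. A κB match lay in 28 of those 170 genes (16.5%) and in 5 of those 62 (8.06%), against 785 of 15563 measured genes (5.04%) and 3.90% of all 32851 windows of this length. A response element core lay in 9 genes that rose (5.29%) and in 0 of the 62 that fell, against 529 measured genes (3.40%). These shares describe letters and no test was made of them. The windows of the 5 highest genes with a κB match follow, 5′ to 3′ on the strand of the gene, with κB matches in capitals, and in *Cxcl10* also a response element core, the first stretch of capitals. Their coordinates are *Cxcl10* chr5:92348890-92349139 (minus strand), *Casp4* chr9:5308599-5308848 (plus strand), *Steap4* chr5:7960222-7960471 (plus strand), *Tlr2* chr3:83841609-83841858 (minus strand), *Nfkbia* chr12:55492648-55492897 (minus strand).
Cxcl10: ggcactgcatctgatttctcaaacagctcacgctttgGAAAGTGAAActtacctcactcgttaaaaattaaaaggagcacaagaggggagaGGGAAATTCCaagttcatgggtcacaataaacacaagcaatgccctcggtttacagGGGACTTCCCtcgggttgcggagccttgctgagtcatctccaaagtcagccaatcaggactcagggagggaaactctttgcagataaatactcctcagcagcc
Casp4: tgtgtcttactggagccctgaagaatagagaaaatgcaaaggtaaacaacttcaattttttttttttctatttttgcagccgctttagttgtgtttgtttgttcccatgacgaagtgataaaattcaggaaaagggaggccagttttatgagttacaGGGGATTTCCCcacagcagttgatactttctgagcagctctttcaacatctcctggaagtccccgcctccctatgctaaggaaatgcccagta
Steap4: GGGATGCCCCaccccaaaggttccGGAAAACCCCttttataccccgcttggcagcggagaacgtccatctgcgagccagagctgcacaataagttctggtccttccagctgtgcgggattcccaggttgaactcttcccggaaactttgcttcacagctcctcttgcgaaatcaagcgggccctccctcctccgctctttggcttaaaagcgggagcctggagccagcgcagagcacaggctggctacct
Tlr2: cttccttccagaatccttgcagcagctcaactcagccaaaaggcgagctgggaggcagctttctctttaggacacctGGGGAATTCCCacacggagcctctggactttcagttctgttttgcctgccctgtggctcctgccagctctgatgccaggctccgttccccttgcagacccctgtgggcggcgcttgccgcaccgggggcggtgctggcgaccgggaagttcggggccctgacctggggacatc
Nfkbia: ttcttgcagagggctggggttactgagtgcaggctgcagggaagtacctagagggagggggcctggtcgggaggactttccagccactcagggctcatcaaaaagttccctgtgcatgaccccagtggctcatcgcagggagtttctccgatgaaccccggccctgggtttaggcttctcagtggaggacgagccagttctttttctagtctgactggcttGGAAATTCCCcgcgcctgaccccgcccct
In *Nfkbia* the κB match starts 29 bases before the gene, and in *Casp4* and *Tlr2* overlapping matches form a single stretch of 11 bases. Matches were also found for *Tnfaip3* (125 and 12 bases before the start), *Nfkbie* (106), *Madcam1* (83 and 70), *Irf1* (13) and *Tnip1* (58). Among genes that fell, *Padi2* held a match 51 bases before its start. *B2m* and *Gbp5* each held both a κB match and a response element core.

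*Mir146* is the host entry of miR-146a, a microRNA that NF-κB induces and that limits signaling by Toll-like receptors. It was chosen after its values were seen. Its probe set is dim, with 4.20, 4.29 and 4.24 with TNF and 3.68, 3.62 and 3.58 without it, and it rose by 0.62 (SE 0.0883, q = 0.000303). The array reads the precursor region and not the mature form. *Mir146b*, whose product shares the seed, had 6.47, 6.04 and 6.41 in TNF-treated and 6.66, 6.18 and 6.23 in untreated NSPs with overlapping arrays, a value of −0.05 (q = 0.867). The mature sequences are from RefSeq on GRCm38.p6 (chromosome 11, 43374435 to 43374456, minus strand, and chromosome 19, 46342790 to 46342811, plus strand), with the shared seed, bases 2 to 8, in capitals.
mmu-miR-146a-5p: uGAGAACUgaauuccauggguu
mmu-miR-146b-5p: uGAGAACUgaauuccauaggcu
Both are 22 bases long.

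Of 27 chemokines 5 rose and 0 fell, with a median of 0.02. *Ccl2* and *Ccl7* encode chemokines for monocytes. *Ccl2* had 12.73, 13.03 and 12.53 in TNF-treated NSPs, against 7.65, 8.23 and 8.23 in untreated NSPs, and rose by 4.72 (SE 0.353, q = 4.32e-08). *Ccl7* had 9.78, 11.22 and 10.22 with TNF and 7.46, 7.31 and 7.38 without it, a wider spread among the TNF-treated arrays, and rose by 3.02 (SE 0.35, q = 2.18e-05). *Cxcl10* and *Cxcl11* encode ligands of CXCR3, a chemokine receptor found on T cells. *Cxcl10* had 12.70, 12.66 and 12.65 in TNF-treated and 8.40, 8.60 and 8.42 in untreated NSPs, tight within both groups, and rose by 4.19 (SE 0.21, q = 1.35e-10). *Cxcl11* rose far less, with 7.34, 7.46 and 7.63 in TNF-treated NSPs, against 6.63, 6.54 and 6.47 in untreated NSPs and a rise of 0.93 (SE 0.172, q = 0.00556). *Cx3cl1*, which encodes the membrane-bound chemokine read by microglia, had 10.45, 11.57 and 10.97 with TNF and 9.26, 10.22 and 9.23 without it. The groups nearly meet, with a rise of 1.43 (SE 0.323, q = 0.0291), and the call was lost for *Cx3cl1* without TNF-treated replicate 2 or 3 or untreated replicate 1 or 3 (1.14 to 1.44).

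Of 43 cytokines and their receptors 5 rose and 0 fell, with a median of 0.01. *Tnfsf18*, which encodes the TNF family ligand GITRL, had 8.75, 8.62 and 8.94 in TNF-treated and 6.54, 6.87 and 6.66 in untreated NSPs, and rose by 2.08 (SE 0.293, q = 0.000255). Both chains of the interferon-γ receptor rose. *Ifngr2* had 12.39, 12.43 and 12.50 in TNF-treated NSPs, against 11.27, 11.25 and 11.23 in untreated NSPs, with a rise of 1.19 (SE 0.106, q = 6.35e-07), and *Ifngr1* rose by 0.72 (SE 0.156, q = 0.0217). The interleukin 6 receptor *Il6ra* rose by 0.95 (SE 0.182, q = 0.00689), and *Tslp*, a cytokine of epithelial barriers that is dim in untreated NSPs, by 1.17 (SE 0.266, q = 0.0294). *Il6* itself was dim, with 3.89, 3.996 and 3.83 with TNF and 3.91, 3.82 and 3.79 without it in overlapping arrays. Calls did not hold for *Ifngr1* without TNF-treated replicate 2 or 3 or untreated replicate 1 or 3 (0.57 to 0.72) and for *Tslp* without TNF-treated replicate 2 or 3 or untreated replicate 1, 2 or 3 (0.95 to 1.21).

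Of 15 adhesion molecules 3 rose and 0 fell. *Vcam1*, which encodes a ligand of leukocyte integrins, had 12.68, 12.91 and 12.62 in TNF-treated and 10.26, 10.02 and 10.15 in untreated NSPs, and rose by 2.59 (SE 0.245, q = 1.47e-06). *Madcam1*, which encodes the addressin for gut-homing lymphocytes, had 8.53, 9.56 and 9.36 in TNF-treated NSPs, against 7.36, 6.80 and 6.71 in untreated NSPs, and rose by 2.19 (SE 0.21, q = 1.61e-06). The gap between the groups exceeded the spread within them in both genes. *Cd47*, the signal that holds back phagocytes, rose by 0.78 (SE 0.102, q = 0.000101), and its second probe set was called higher too. *Icam1*, another integrin ligand, had 7.57, 7.23 and 7.48 with TNF and 8.14, 7.36 and 7.63 without it, which overlap, and a value of −0.28 (q = 0.778).

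Of 22 measured genes of the acute phase 4 rose, *Lcn2*, *Steap4*, *Lbp* and *Cp*, and 0 fell, with a median of −0.03. *Lcn2* encodes lipocalin 2, which binds iron-carrying siderophores, and had 12.99, 12.58 and 12.61 in TNF-treated and 7.59, 7.29 and 8.22 in untreated NSPs, a rise of 5.03 (SE 0.348, q = 1.38e-08). *Steap4*, which encodes a metalloreductase, had 12.40, 11.37 and 12.07 in TNF-treated NSPs, against 8.37, 7.71 and 8.72 in untreated NSPs, and rose by 3.68 (SE 0.333, q = 7.85e-07). *Lbp*, on chromosome 2 of GRCm38.p6 (158306493 to 158332852), encodes the protein that hands lipopolysaccharide to CD14. It had 12.82, 13.001 and 12.89 with TNF and 9.92, 10.52 and 10.08 without it, and rose by 2.73 (SE 0.238, q = 4.88e-07). *Cp*, which encodes the copper-carrying ferroxidase ceruloplasmin, had 13.44, 13.47 and 12.81 in TNF-treated and 11.06, 12.26 and 11.33 in untreated NSPs, and rose by 1.69 (SE 0.299, q = 0.00351). *Saa3*, *Ptx3* and *Serpina3n*, other genes of reactive astrocytes, had values of 0.15, 0.15 and −0.15 and did not pass the test. Of 26 genes of pattern recognition 4 rose and 0 fell. *Cd14*, the co-receptor of TLR4, had 8.42, 8.10 and 8.39 in TNF-treated NSPs, against 7.03, 6.74 and 7.19 in untreated NSPs, and rose by 1.32 (SE 0.192, q = 0.000398), and *Tlr2*, which recognizes bacterial lipoproteins, had 10.32, 10.72 and 10.51 with TNF and 7.79, 7.76 and 7.67 without it, and rose by 2.78 (SE 0.199, q = 2.31e-08). *Ddx58* and *Ifih1*, which encode the RNA sensors RIG-I and MDA5, rose by 1.08 (SE 0.2, q = 0.0056) and by 1.02 (SE 0.199, q = 0.00879). In the blocked fit *Tlr4* (q = 0.00106) and *Myd88* (q = 0.0385) passed as well, with values of 1.01 and 0.63. Calls were lost for *Ddx58* without TNF-treated replicate 2 or untreated replicate 1 (0.91 to 0.97) and for *Ifih1* without TNF-treated replicate 2 or untreated replicate 1 (0.92 to 0.94).

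**Figure D2:**
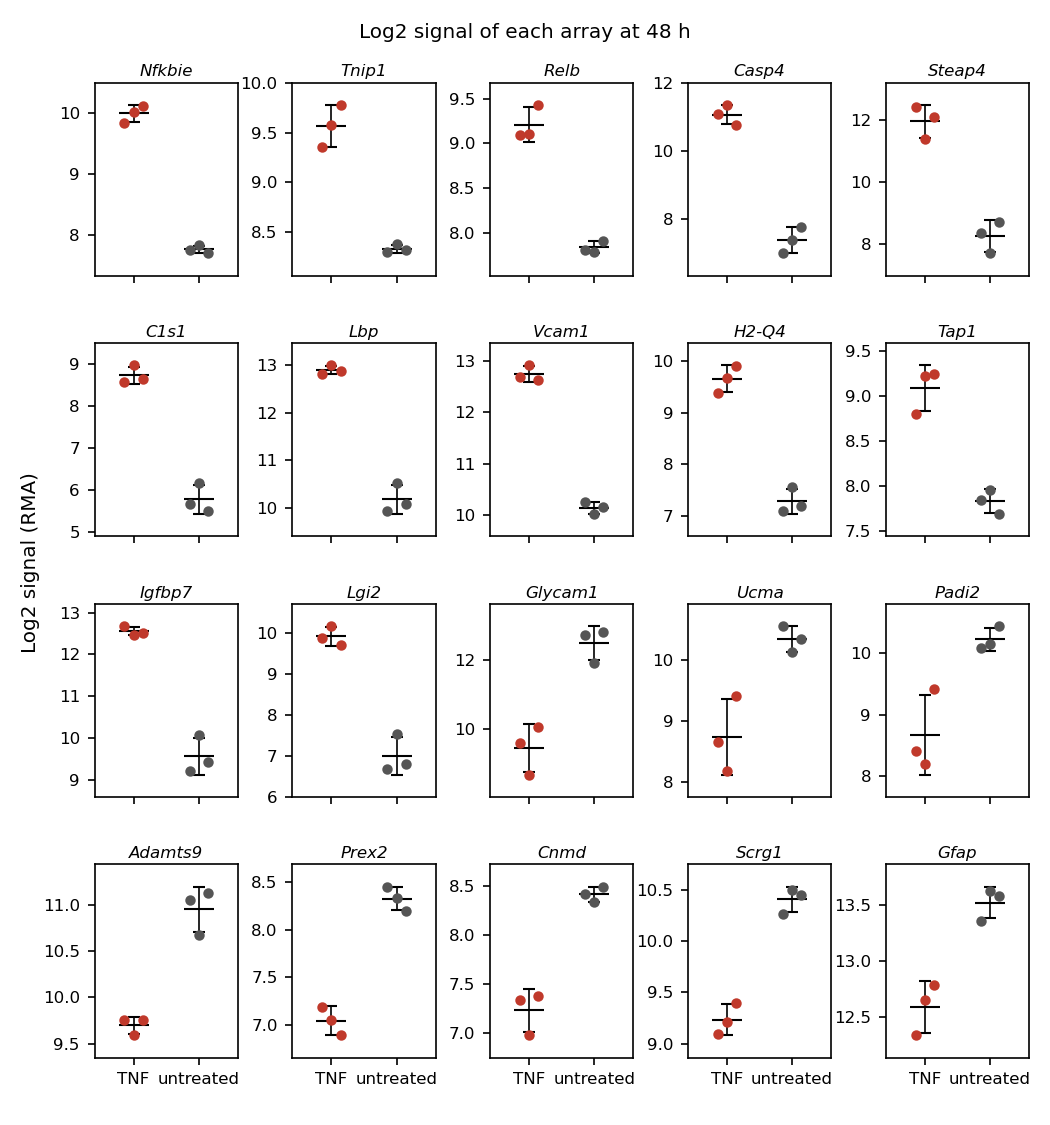
Log2 signals of the 3 TNF-treated (left, red) and 3 untreated arrays (right, gray) at 48 h for 20 genes, with the mean and SD of each group. Each panel has its own axis, which does not start at 0. In all 20 panels the arrays of the groups do not overlap, which holds for every called probe set. Among all probe sets with a symbol 7.1% were apart upward and 6.91% downward. *Gfap* alone did not pass the test (q = 0.117).

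In the list of complement genes the called members encode serine proteases of the first component. *C1s1*, on chromosome 6 of GRCm38.p6 (124530344 to 124542392), encodes C1s, and had 8.57, 8.96 and 8.64 in TNF-treated and 5.65, 6.17 and 5.50 in untreated NSPs, a rise of 2.95 (SE 0.234, q = 1.08e-07). *C1ra*, which encodes C1r, had 7.43, 7.81 and 7.66 in TNF-treated NSPs, against 6.29, 6.41 and 6.30 in untreated NSPs, a rise of 1.30 (SE 0.133, q = 3.81e-06). *C1s2*, a close copy of *C1s1* that is dim in untreated NSPs and was chosen after its values were seen, had 7.01, 7.56 and 7.14 with TNF and 5.05, 5.48 and 5.41 without it, a rise of 1.92 (SE 0.19, q = 2.56e-06). The groups are apart in all 3 genes, although near-identical copies can share probe signal. Of 18 measured genes of the complement list only *C1s1* and *C1ra* were called, with a median of −0.16 over the list. *Cfb*, of the alternative pathway, had 6.82, 6.89 and 6.91 in TNF-treated and 7.21, 7.01 and 6.91 in untreated NSPs. *Cd59a*, which protects cells from the lytic complex, had 8.19, 9.49 and 9.28 in TNF-treated NSPs, against 10.19, 11.25 and 10.39 in untreated NSPs. A value of −1.62 (SE 0.492, q = 0.174) missed the threshold and passed in the blocked fit (q = 0.0172). *Cd59b*, a related gene outside the list, was chosen after its values were seen. It was called lower, at −0.903 (SE 0.215, q = 0.0415).

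Genes at each step of antigen presentation, from the proteasome to the surface molecule, were called higher. Of 8 immunoproteasome genes 3 rose and 0 fell, with a median of 0.37. *Psmb8*, *Psmb9* and *Psmb10* encode the catalytic subunits that replace those of the standard proteasome. *Psmb8* had 7.19, 7.72 and 7.34 with TNF and 6.51, 6.51 and 6.58 without it, and rose by 0.88 (SE 0.125, q = 0.000281). *Psmb9* had 9.02, 8.74 and 8.96 in TNF-treated and 8.44, 8.40 and 8.28 in untreated NSPs, a rise of 0.54 (SE 0.0952, q = 0.00373). *Psmb10* had 9.67, 10.62 and 10.34 in TNF-treated NSPs, against 8.96, 9.27 and 8.93 in untreated NSPs, and rose by 1.16 (SE 0.247, q = 0.0183). Of 13 genes of MHC class I and peptide loading 6 rose and 0 fell, with a median of 0.55. *Tap1* and *Tap2* encode the peptide transporter. *Tap1* had 8.80, 9.23 and 9.24 with TNF and 7.85, 7.96 and 7.70 without it, and rose by 1.26 (SE 0.134, q = 6.36e-06), and *Tap2* had 9.60, 9.35 and 9.97 in TNF-treated and 8.45, 8.44 and 8.44 in untreated NSPs, and rose by 1.197 (SE 0.128, q = 6.4e-06). *Tapbp*, which encodes the chaperone tapasin, rose by 0.97 (SE 0.179, q = 0.00543), and *Erap1*, a trimming peptidase, by 0.76 (SE 0.143, q = 0.00654). *B2m*, the light chain of all class I molecules, had 13.04, 13.23 and 12.93 in TNF-treated NSPs, against 12.22, 12.46 and 12.25 in untreated NSPs, and rose by 0.76 (SE 0.125, q = 0.0016). *H2-Q4*, a non-classical class I gene, had 9.38, 9.67 and 9.90 with TNF and 7.10, 7.56 and 7.18 without it, and rose by 2.37 (SE 0.243, q = 4.03e-06). Class I genes are near-identical in sequence, so that the probe set of *H2-Q4* may read other members. In the fit of the 6 arrays alone 0 of the 8 immunoproteasome genes passed. In the blocked fit 7 class I genes and 4 immunoproteasome genes were higher. The test was no longer passed by *Psmb10* without TNF-treated replicate 2 or 3 or untreated replicate 1 or 3 (0.95 to 1.11) and by *Erap1* without TNF-treated replicate 2 or untreated replicate 3 (0.65 to 0.71).

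Of 42 interferon-stimulated genes 15 rose (35.7%) and 0 fell, with a median of 0.36, against 223 of 19938 genes over the array (1.12%). *Irf1*, the transcription factor that drives class I and immunoproteasome genes, had 9.61, 10.15 and 10.15 in TNF-treated and 7.87, 8.16 and 7.93 in untreated NSPs, and rose by 1.98 (SE 0.149, q = 4.34e-08). Of the 2 probe sets of *Irf1* only this 1 was called, though both had values above 0. *Ifitm3*, which blocks virus entry, had 10.69, 11.04 and 10.80 in TNF-treated NSPs, against 8.54, 9.32 and 8.74 in untreated NSPs, and rose by 1.98 (SE 0.332, q = 0.00194). *Gbp5* and *Gbp3* encode guanylate-binding GTPases, and rose by 1.62 (SE 0.182, q = 1.43e-05) and by 1.23 (SE 0.289, q = 0.0375). *Gbp5* had 7.30, 6.78 and 7.22 with TNF and 5.63, 5.31 and 5.50 without it. *Parp14* and *Dtx3l*, of ADP-ribosylation and ubiquitin transfer, rose by 1.06 (SE 0.162, q = 0.00074) and by 0.97 (SE 0.172, q = 0.00376). *Oasl2*, *Usp18* and *Irf8*, an antiviral sensor, a protease that removes ISG15 and a transcription factor, rose by 0.96, 0.86 and 0.83, and the other called members had log2 fold changes from 0.50 for *Trim21* to 0.90 for *Gbp4*, which is dim in untreated NSPs. *Irf7*, the factor that amplifies the type I interferon response, had 6.83, 6.84 and 7.12 in TNF-treated and 6.82, 6.52 and 6.87 in untreated NSPs, a value of 0.19 in overlapping arrays. *Ifit1*, *Ifit3*, *Mx1* and *Rsad2*, antiviral genes chosen after their values were seen, had values of 0.21, 0.00, 0.11 and 0.03 and did not pass the test. Without 1 array the count of this list ran from 8, without TNF-treated replicate 2, and 9, without untreated replicate 3, to 13. Calls did not hold for *Gbp3* without TNF-treated replicate 1, 2 or 3 or untreated replicate 1, 2 or 3 (1.06 to 1.32), for *Gbp4* without TNF-treated replicate 2 or untreated replicate 2 or 3 (0.59 to 0.87) and for *Trim21* without TNF-treated replicate 2 or 3 or untreated replicate 1 or 3 (0.42 to 0.49).

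**Figure D3:**
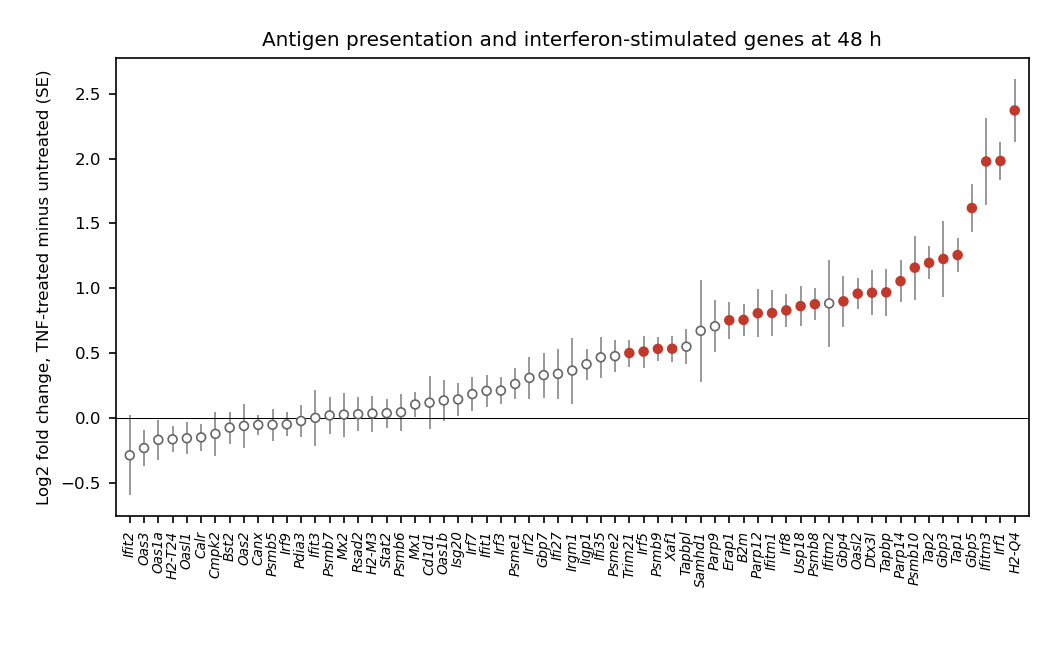
Log2 fold change at 48 h with standard error bars for the measured genes of MHC class I and peptide loading, the immunoproteasome and the interferon-stimulated genes, in rising order. Filled points passed the test, from *Trim21* (0.50) to *H2-Q4* (2.37), and open points did not.

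TNF receptors also signal to cell death and survival. *Casp4*, on chromosome 9 of GRCm38.p6 (5308849 to 5336791), encodes the inflammatory caspase that senses lipopolysaccharide inside the cell. It had 11.08, 11.36 and 10.78 in TNF-treated NSPs, against 6.99, 7.39 and 7.76 in untreated NSPs, and rose by 3.69 (SE 0.268, q = 2.77e-08), the largest change after *Lcn2*, *Ccl2* and *Cxcl10*. *Bid*, which relays death receptor signals to mitochondria, rose by 0.86 (SE 0.196, q = 0.0298). They were the 2 of 22 measured genes that rose in the list named apoptosis promoters, and 0 fell, with a median of 0.25. The list counts *Casp4* under that name, although it is an inflammatory caspase. *Casp1*, the caspase that matures interleukin 1β, had 7.97, 8.12 and 7.57 with TNF and 6.61, 6.31 and 6.55 without it, a value of 1.40 (SE 0.363, q = 0.0719) that missed the threshold and passed in the blocked fit (q = 0.00814). Of 12 apoptosis inhibitors *Birc2* alone rose, and *Mcl1*, *Bcl2* and *Gadd45b* had values of −0.12, 0.14 and −0.03. *Cdkn2b*, which encodes the cell cycle inhibitor p15, was chosen after its values were seen. It had 10.73, 10.81 and 10.87 in TNF-treated and 8.64, 8.88 and 8.79 in untreated NSPs, and rose by 2.03 (SE 0.127, q = 3.79e-09). *Eda2r*, *Phlda3* and *Trp53inp1*, known as targets of p53 and chosen in the same way, rose by 1.54, 1.38 and 0.65. No list of p53 targets was read, so that these genes do not describe p53 targets as a set. Calls were lost for *Bid* without TNF-treated replicate 2 or 3 or untreated replicate 1, 2 or 3 (0.76 to 0.91), for *Eda2r* without TNF-treated replicate 2 or 3 or untreated replicate 1 or 3 (1.31 to 1.56), for *Phlda3* without TNF-treated replicate 2 or 3 or untreated replicate 1 or 3 (1.199 to 1.36) and for *Trp53inp1* without TNF-treated replicate 1 or 2 or untreated replicate 1 or 3 (0.56 to 0.65).

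Of 22 immediate early and C/EBP factors 3 rose and 0 fell, with a median of 0.30. *Cebpd*, which amplifies acute phase genes, had 9.78, 9.82 and 9.98 in TNF-treated NSPs, against 8.49, 8.36 and 8.61 in untreated NSPs, and rose by 1.37 (SE 0.178, q = 8.9e-05). *Junb*, of the AP-1 family, had 9.17, 9.72 and 9.83 with TNF and 8.42, 8.24 and 8.68 without it, and rose by 1.13 (SE 0.201, q = 0.00373). *Egr2*, a zinc finger factor, rose by 1.03 (SE 0.238, q = 0.0325), and a call was lost for *Egr2* without TNF-treated replicate 3 or untreated replicate 1, 2 or 3 (0.85 to 1.12). Among 25 antioxidant and metal genes only the iron importer *Slc11a2* rose, by 0.57 (SE 0.129, q = 0.0274), a call lost for *Slc11a2* without TNF-treated replicate 2 or 3 or untreated replicate 1, 2 or 3 (0.53 to 0.63). *Sod2*, a classical NF-κB target, had 11.61, 11.44 and 11.68 in TNF-treated and 11.77, 11.59 and 11.62 in untreated NSPs and a value of −0.08. *Mt2*, *Txn1* and *Fth1*, the brightest of this list, had values of −0.11, −0.01 and 0.08.

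**Figure D4:**
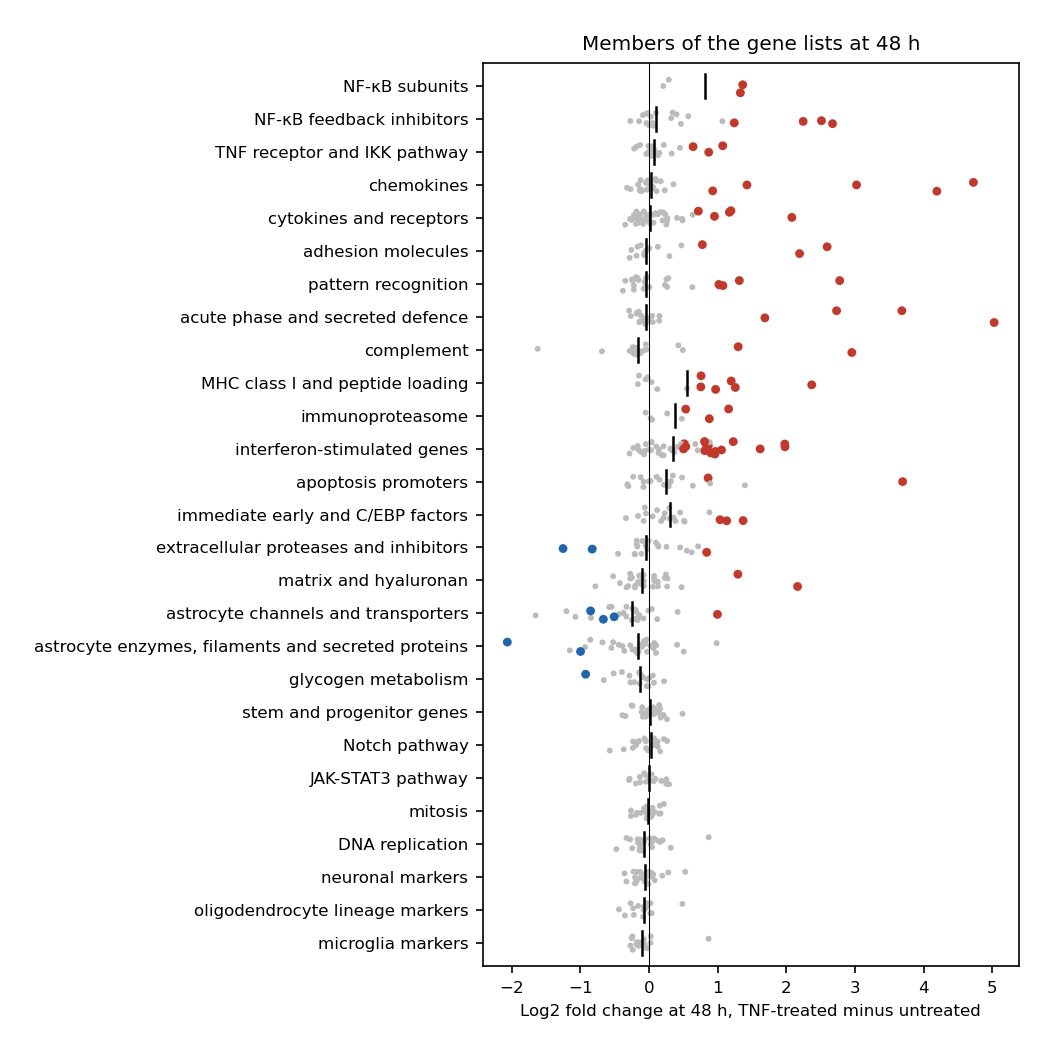
Log2 fold change at 48 h of each measured gene in 27 of the 36 gene lists. Red points were called higher, blue points lower and gray points neither, and black bars are list medians. The medians of NF-κB subunits (0.81) and MHC class I genes (0.55) lie to the right of 0, and that of astrocyte channels and transporters (−0.25) to the left.

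*Igfbp7*, which encodes a binding protein of insulin-like growth factors, had 12.68, 12.47 and 12.52 in TNF-treated NSPs, against 9.22, 10.06 and 9.41 in untreated NSPs, and rose by 2.99 (SE 0.378, q = 6.29e-05). *Lgi2*, which encodes a secreted protein of the nervous system, had 9.87, 10.17 and 9.70 with TNF and 6.68, 7.54 and 6.80 without it, and rose by 2.91 (SE 0.474, q = 0.00145). *Has2*, the synthase of hyaluronan, had 9.43, 8.45 and 9.16 in TNF-treated and 6.81, 6.60 and 7.13 in untreated NSPs, and rose by 2.16 (SE 0.27, q = 5.39e-05). *Col6a1*, a collagen VI chain, rose by 1.29 (SE 0.278, q = 0.0193), and with *Has2* made up the 2 of 34 matrix genes that rose, while 0 fell. *Cldn1*, a tight junction protein, had 8.35, 9.25 and 8.94 in TNF-treated NSPs, against 6.52, 7.11 and 6.58 in untreated NSPs, and rose by 2.11 (SE 0.3, q = 0.000285). *BC023105*, a gene known by its clone name and dim in untreated NSPs, had 6.69, 7.21 and 6.49 with TNF and 3.92, 4.43 and 4.08 without it, and rose by 2.65 (SE 0.257, q = 1.91e-06). In these genes the TNF-treated arrays were above all untreated arrays. Of 23 extracellular proteases and inhibitors *Mmp2* rose by 0.84 (SE 0.205, q = 0.0481), and *Plau*, the urokinase, fell by 0.83 (SE 0.186, q = 0.0271). *Adamts9*, which encodes a protease of the matrix proteoglycan versican, had 9.76, 9.59 and 9.75 in TNF-treated and 11.05, 10.67 and 11.13 in untreated NSPs, and fell by 1.25 (SE 0.189, q = 0.000582). All 6 probe sets of *Adamts9* fell, by 0.966 to 1.67. The test was no longer passed by *Col6a1* without TNF-treated replicate 2 or 3 or untreated replicate 1 or 3 (1.09 to 1.29), by *Mmp2* without TNF-treated replicate 1 or 3 or untreated replicate 1, 2 or 3 (0.60 to 0.87) and by *Plau* without TNF-treated replicate 1, 2 or 3 or untreated replicate 1 or 2 (−0.59 to −0.86).

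*Glycam1*, on chromosome 15 of GRCm38.p6 (103562759 to 103565081), fell the most. It encodes a mucin-like protein that carries a ligand of L-selectin in lymph nodes. Its log2 signals were 9.59, 8.66 and 10.04 in TNF-treated NSPs, against 12.74, 11.92 and 12.84 in untreated NSPs. Even the highest TNF-treated array was below the lowest untreated array by more than the spread within either group, and *Glycam1* fell by 3.07 (SE 0.365, q = 2.94e-05), an 8.4-fold lower signal. *Aldh1a1*, an enzyme of retinoic acid synthesis, had 9.08, 9.51 and 9.90 with TNF and 11.33, 11.86 and 11.49 without it, and fell by 2.06 (SE 0.411, q = 0.0106). *Ucma*, which encodes a secreted cartilage protein, had 8.65, 8.18 and 9.41 in TNF-treated and 10.55, 10.13 and 10.34 in untreated NSPs, and fell by 1.59 (SE 0.332, q = 0.0156). *Padi2*, which encodes an enzyme that turns arginine into citrulline, had 8.42, 8.20 and 9.41 in TNF-treated NSPs, against 10.08, 10.13 and 10.43 in untreated NSPs, and fell by 1.54 (SE 0.323, q = 0.0164). In *Ucma* and *Padi2* replicate 3 of TNF-treated NSPs lay closer to the untreated arrays than the others. *Prex2*, an activator of the GTPase Rac, had 7.196, 7.05 and 6.90 with TNF and 8.45, 8.33 and 8.20 without it, and fell by 1.28 (SE 0.149, q = 2.49e-05). *Cnmd*, which encodes the vessel inhibitor chondromodulin, had 7.34, 6.98 and 7.38 in TNF-treated and 8.43, 8.34 and 8.49 in untreated NSPs, and fell by 1.19 (SE 0.165, q = 0.000228). *Scrg1*, known for its rise in scrapie-infected brain, had 9.10, 9.21 and 9.40 in TNF-treated NSPs, against 10.27, 10.50 and 10.45 in untreated NSPs, and fell by 1.17 (SE 0.2, q = 0.00232). *Frem2*, a matrix protein, fell by 1.15 (SE 0.144, q = 5.51e-05), *Tuba4a*, a tubulin, by 1.14 (SE 0.136, q = 3.21e-05), and *Cntn1*, a neural adhesion molecule, by 1.13 (SE 0.226, q = 0.0109). *Gm10635*, *Pth2r*, a receptor for parathyroid hormone-related peptides, and *Ccbe1*, a secreted factor of lymph vessel growth, fell by 1.13 (SE 0.178, q = 0.00102), 1.07 (SE 0.209, q = 0.00889) and 1.06 (SE 0.242, q = 0.0298). The *Unc13c* probe set with the highest signal had a value of −0.15 (q = 0.815), whereas 4 of the 7 probe sets of this synaptic gene were called lower, with log2 fold changes of −0.798 to −1.14. Calls did not hold for *Aldh1a1* without TNF-treated replicate 2 (−2.07), for *Ucma* without TNF-treated replicate 2 or untreated replicate 1 or 3 (−1.31 to −1.59), for *Padi2* without TNF-treated replicate 1 or 2 or untreated replicate 1 or 3 (−1.30 to −1.61), for *Cntn1* without TNF-treated replicate 2 or untreated replicate 1 or 3 (−0.99 to −1.11), for *Pth2r* without TNF-treated replicate 2 or 3 (−1.04 to −1.05) and for *Ccbe1* without TNF-treated replicate 1, 2 or 3 or untreated replicate 1 or 2 (−0.83 to −1.12).

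Transporters were among the lowered genes. *Slc22a4*, the ergothioneine carrier, had 8.12, 7.71 and 8.23 with TNF and 9.36, 9.14 and 9.45 without it, and fell by 1.29 (SE 0.246, q = 0.00688). *Slc2a1*, the glucose transporter GLUT1, had 10.71, 10.96 and 11.21 in TNF-treated and 11.98, 12.21 and 11.84 in untreated NSPs, and fell by 1.05 (SE 0.194, q = 0.00543), while *Slc2a6*, another member of the glucose transporter family, had 8.97, 9.53 and 9.27 in TNF-treated NSPs, against 8.15, 7.92 and 7.98 in untreated NSPs, and rose by 1.24 (SE 0.178, q = 0.000327). *Slc39a4*, a zinc importer, had 9.03, 9.53 and 9.87 with TNF and 7.65, 7.53 and 7.43 without it, and rose by 1.94 (SE 0.172, q = 6.26e-07). These 3, and the family they belong to, were chosen after their values were seen. Of 364 measured solute carriers 6 rose (1.65%) and 9 fell (2.47%), against 1.12% and 0.376% of all genes. A call was lost for *Slc22a4* without TNF-treated replicate 2 (−1.14).

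Both astrocyte lists had medians below 0, the lowest of the 36 lists, although a median below 0 is not particular to them. Over all 19938 genes the median was −0.04, 11849 had a value below 0, 1.12% rose and 0.376% fell. The complement list (−0.16) and the BMP list (−0.13) had medians below 0 too. Of 27 channels and transporters 3 fell and 1 rose, 23 had a value below 0, and the median was −0.25. In 16 of the 27 every TNF-treated array was below every untreated array, and in 3 above. Among all probe sets with a symbol these shares were 6.91% and 7.1%. *Slc15a2*, a peptide transporter, had 10.32, 9.92 and 10.15 in TNF-treated and 10.80, 10.98 and 10.60 in untreated NSPs, and fell by 0.66 (SE 0.161, q = 0.0456). *Slc4a4*, the bicarbonate cotransporter, had 11.93, 11.65 and 11.57 in TNF-treated NSPs, against 12.76, 12.41 and 12.53 in untreated NSPs, and fell by 0.85 (SE 0.166, q = 0.00886). *Atp1b2*, the glial sodium pump subunit, had 12.89, 13.03 and 13.13 with TNF and 13.51, 13.47 and 13.59 without it, and fell by 0.51 (SE 0.0938, q = 0.00556). The member that rose, *Cspg5*, encodes the proteoglycan neuroglycan C, and had 11.52, 11.42 and 11.69 in TNF-treated and 10.61, 10.42 and 10.61 in untreated NSPs, a rise of 0.997 (SE 0.117, q = 2.49e-05). In the blocked fit 9 fell, among them *Slc14a1* (−1.65), *Ntsr2* (−1.203), *Slc38a3*, a glutamine transporter (−1.07), and *Slc1a2*, the glutamate transporter GLT-1 (−0.54). Of 34 enzymes, filaments and secreted proteins 2 fell, *Aldh1a1* and *Cyp4f14*, a fatty acid hydroxylase (−0.997, SE 0.241, q = 0.0456), 0 rose, and the median was −0.17. *Gfap*, the astrocyte filament, had 12.34, 12.65 and 12.79 in TNF-treated NSPs, against 13.36, 13.62 and 13.59 in untreated NSPs. Its arrays are apart, but at −0.93 (SE 0.262, q = 0.117) it missed the threshold, as it did in the blocked fit (q = 0.0919), and passed only in the fit of the 6 arrays alone. *Gja1*, which encodes connexin 43, had 12.51, 11.86 and 12.48 with TNF and 13.24, 12.95 and 13.19 without it, a value of −0.84 (SE 0.237, q = 0.115). *Slc1a3*, the glutamate transporter GLAST, and *Sox9*, the glial transcription factor, had values of 0.04 and −0.17 in overlapping arrays. The summed signal of the 10 astrocyte markers set for the label check, on a linear scale, was 50640 to 59954 with TNF and 68073 to 72219 without, and none of the 10 passed the test alone. The part of cell numbers in these values was not tested. Of 18 genes in the glycogen list *Ppp1r3c*, which targets a phosphatase to glycogen, fell by 0.92 (SE 0.209, q = 0.0293), and *Pygb*, *Phkb* and *Gyg* had values of −0.27, −0.39 and −0.01. *Phkg1*, a glycogen gene outside the list, was chosen after its values were seen. It was called lower, at −0.703 (SE 0.157, q = 0.026). Of 18 retinoid genes *Aldh1a1* alone fell, and *Aldh1a7* passed only in the blocked fit (−1.10, q = 0.00172). *Ptger3*, a prostaglandin E receptor, was the only one of 15 prostaglandin genes called, and fell by 0.57 (SE 0.113, q = 0.0108). Calls were lost for *Slc15a2* without TNF-treated replicate 2 or 3 or untreated replicate 1, 2 or 3 (−0.56 to −0.76), for *Slc4a4* without TNF-treated replicate 2 or 3 or untreated replicate 1 (−0.75 to −0.82), for *Cyp4f14* without TNF-treated replicate 1 or 2 or untreated replicate 1 or 3 (−0.85 to −0.99), for *Ppp1r3c* without TNF-treated replicate 1 or 2 or untreated replicate 1 or 3 (−0.82 to −0.90) and for *Ptger3* without TNF-treated replicate 2 or untreated replicate 2 (−0.47 to −0.55).

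Lists of cell identity and growth held no call at 48 h. In 25 stem and progenitor genes 0 rose and 0 fell in limma, with a median of 0.02. *Msi1*, *Sox2* and *Fabp7* had values of −0.25, 0.16 and 0.02, the progenitor marker *Prom1* had 7.01, 7.46 and 6.93 in TNF-treated and 7.42, 8.09 and 7.05 in untreated NSPs, and *Cd44*, a marker of astrocyte precursors, had 9.85, 9.98 and 9.76 in TNF-treated NSPs, against 9.60, 9.93 and 9.68 in untreated NSPs. In a list of 22 Notch genes no member passed, with *Hes1* at 0.06, *Hes5* at 0.16, *Hey1* at −0.37 and *Notch1* at −0.23. *Dner*, a Notch ligand outside the list that is given further below, was called lower, at −0.867 (SE 0.115, q = 0.000121). The proneural factor *Neurod1* had a value of 0.04. In 19 genes of the JAK-STAT3 pathway *Stat3* had 12.46, 12.46 and 12.51 with TNF and 12.20, 12.14 and 12.21 without it, apart by a small step of 0.29 (q = 0.252), and the feedback inhibitor *Socs3* had 9.24, 9.17 and 9.50 in TNF-treated and 9.55, 9.12 and 9.64 in untreated NSPs. In 24 BMP genes *Id1* and *Id3* had values of 0.14 and −0.16. In 24 mitosis genes *Mki67* had 6.59, 6.89 and 6.48 in TNF-treated NSPs, against 6.99, 7.33 and 6.44 in untreated NSPs, with a median over the list of −0.01, and in 25 genes of DNA replication *Pcna* had a value of −0.13. None of these 6 lists held a called member in any fit with 1 array left out. In the blocked fit *Bmp2* passed, at 1.03 (q = 0.0393), and no other member of the 6 did. Of 25 neuronal, 17 oligodendrocyte and 20 microglia markers 0 were called, with medians of −0.05, −0.08 and −0.11. Over all 35556 probe sets 2316 had an unadjusted p under 0.05.

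Each time of the series has its own untreated arrays, so that the TNF effect at 48 h can be set against those at 24 and 72 h. The difference itself was tested. In limma 0 probe sets with a symbol had a larger effect at 48 h than at 24 h and 3 had a smaller one (0.0128%), with 782 of 35556 at an unadjusted p under 0.05. Between 48 and 72 h 0 probe sets differed in either direction, with 419 at an unadjusted p under 0.05. *Mylk2*, which encodes the myosin light chain kinase of skeletal muscle, was the 1 gene named by the 3 probe sets. At 48 h it had 7.72, 7.96 and 8.05 with TNF and 7.56, 7.19 and 7.25 without it, a value of 0.58 (SE 0.183, q = 0.217) that did not pass the test, against log2 fold changes of 2.39 at 6 h and 3.37 at 24 h. The 48 h effect of *Mylk2* minus its 24 h effect was −2.80 (SE 0.259, q = 2.68e-05).

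Of the 241 higher probe sets 45 were also called at 6 h (18.7% of those at 48 h and 43.7% of those at 6 h), 133 at 24 h (55.2% and 64.6%) and 143 at 72 h (59.3% and 77.7%). Of the 92 lower ones 4, 42 and 52 were called at those times. None was called in the opposite direction, 35 higher and 4 lower ones were called at all times, and 64 higher and 23 lower ones at 48 h alone. A call missing at another time does not show a difference in effect. Of the genes named here only *Mylk2* passed the test of a difference from 24 h, and none that from 72 h. Differences from 6 h were not tested, so that the courses below only describe values. Log2 fold changes are given from here in the order 6, 24, 48 and 72 h. *Tslp* had 2.15, 2.26, 1.17 and 0.53, and *Egr2* had 2.86, 1.85, 1.03 and 0.89. *C1s1* had 0.19, 1.56, 2.95 and 3.45, *Nfkbie* had 0.36, 1.35, 2.25 and 2.58, and *Lgi2* had 0.02, 1.45, 2.91 and 3.02. The first pair thus had higher values at earlier times, and the other genes had values near 0 or small at 6 h. *Lbp* had 0.40, 3.16, 2.73 and 2.25, and *Glycam1* had −0.28, −2.55, −3.07 and −2.38. *Cnmd* had −0.10, −0.14, −1.19 and −1.74, and *Ptger3* had −0.03, −0.03, −0.57 and −1.06, so that both were called at 48 and 72 h alone. *C1s2* and *Ucma* were called at 48 h alone, with log2 fold changes of −0.22, 0.63, 1.92 and 0.85 for *C1s2* and −0.02, −0.35, −1.59 and −1.08 for *Ucma*.

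**Figure D5:**
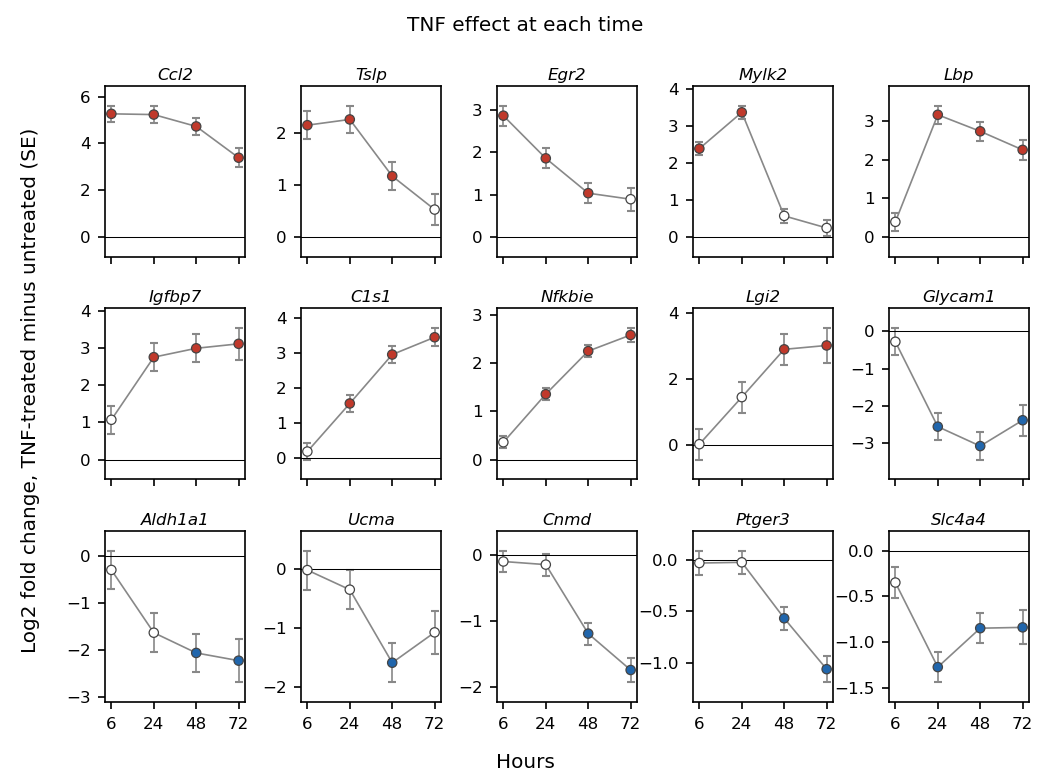
Log2 fold change (TNF-treated minus untreated NSPs, with standard error bars) at 6, 24, 48 and 72 h for 15 genes, with filled points for q-values under 0.05. Each time has its own untreated arrays, the 72 h values rest on 2 TNF-treated arrays, and each panel has its own axis. *Mylk2* is high at 24 h (3.37) and near 0 at 72 h, while *C1s1* and *Nfkbie* are higher from 24 h on, and *Cnmd* is lower from 48 h on. Only *Mylk2* passed the test of a difference between 48 and 24 h, and none of the genes passed that between 48 and 72 h.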

How the data were processed

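RNA of the NSPs was hybridised to Affymetrix MoGene 1.0 ST arrays, which have 1 colour. The deposited values are log2 signals made by the authors with RMA (background correction, quantile normalization and summary by probe set) in oligo and R 3.3.1, and quantile normalization equalises the arrays, so that a shift shared by all genes cannot be seen. Probe sets were named through GEO's platform annotation. For a gene with several probe sets, that with the highest mean over all 26 arrays was used. All 26 arrays entered 1 limma fit (3.58.1, in R 4.3.3) with 9 group means, and q-values followed the qvalue smoother over 35556 probe sets. The code was tested on simulated data. The members and the 36 gene lists were chosen with earlier results of these data known. Named are the genes of the 20 highest and 20 lowest called probe sets with 1 symbol and without overlap. A gene such as *Adamts9* holds several of these probe sets. Up to 6 called members of each list were named too, or its 3 brightest where fewer than 2 were called. Genes the study names and the 5 highest and lowest of each difference between times were added. Other named genes were chosen after their values were seen, among them further list members that did not pass and those that passed only with a replicate block. Deviations of arrays with the same replicate number in the labels correlated at 0.478, 0.733 and 0.159 over the probe sets with a symbol. Arrays with different numbers correlated at −0.587 to 0.101, so that replicate 3 is hardly set apart. Over all probe sets the values for the same number were 0.309, 0.608 and −0.0238. The numbers were taken to pair the arrays in the blocked fit only. The main fit holds no term for the pairing, and the main calls and misses are those of unpaired groups. Alternatives were Benjamini-Hochberg adjustment, a fit of only the arrays compared, cyclic loess, the dimmest 40% of probe sets left out, a trend with a robust prior, the block, and each array left out.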

Additional observations from a re-analysis of the deposited data

Results flagged for a closer look

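*Mylk2* differed in its TNF effect between times. The effect at 48 h minus that at 24 h was −2.80 (SE 0.259, q = 2.68e-05 in limma), with log2 fold changes of 0.58 at 48 h and 3.37 at 24 h. For 2 probe sets with several gene symbols, which are not named, the same difference was −1.84 (SE 0.278, q = 0.0218) and −1.82 (SE 0.264, q = 0.0177), a smaller effect at 48 h, with log2 fold changes of 0.19 and 0.17 at 48 h against 2.02 and 1.99 at 24 h.

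Outside the probe sets with a gene symbol, 34 probe sets were higher with TNF at 48 h and 2 were lower, out of 12146. Groups of 3 arrays are too small for a check for single outlying samples.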

How the results depend on the processing

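The main counts were 241 probe sets higher and 92 lower with TNF. A fit of only the 6 arrays compared gave 135 and 42. Without 1 array the counts ran from 129 to 267 higher and from 27 to 131 lower. The call was kept without each of the 6 arrays by 104 of 223 higher genes and by only 18 of 75 lower genes. In the fit with the replicate block they were 416 and 219, and the block changed no call of a named gene other than the 11 given with their q-values or values above. Benjamini-Hochberg adjustment gave 229 and 84, cyclic loess 235 and 98, leaving out the dimmest 40% of probe sets 236 and 97, and a trend with a robust prior 243 and 93. The count of smaller effects at 48 h than at 24 h, 3, was 1 in the fit of only the arrays compared, with cyclic loess and with the dimmest 40% left out, and ran from 1 to 4 without 1 array. No probe set had a larger effect at 48 h than at 24 h, or a different one at 72 h, in limma under any of these settings.

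Of the 104 called genes named, the call ended in the fit of only the 6 arrays for 35 (*Atp1b2*, *Birc2*, *Ccbe1*, *Cp*, *Cx3cl1*, *Cyp4f14*, *Ddx58*, *Dtx3l*, *Egr2*, *Erap1*, *Gbp4*, *Ifih1*, *Ifngr1*, *Il1rap*, *Irf8*, *Junb*, *Map3k8*, *Mmp2*, *Padi2*, *Parp14*, *Phlda3*, *Plau*, *Ppp1r3c*, *Psmb10*, *Psmb8*, *Psmb9*, *Ptger3*, *Pth2r*, *Slc11a2*, *Slc15a2*, *Slc4a4*, *Trim21*, *Trp53inp1*, *Tslp* and *Ucma*), with Benjamini-Hochberg adjustment for 3 (*Cyp4f14*, *Mmp2* and *Slc15a2*), with a trend and robust prior for 1 (*Mmp2*), with cyclic loess for 3 (*Plau*, *Slc15a2* and *Tslp*), all in the same direction. *Cd59b* and *Phkg1* were not among these 104, and whether their calls held in these settings is not given here. Beside the block, *Bcl3*, *Casp1*, *Gfap* and *Slc38a3* passed in the fit of only the 6 arrays, *Bcl3*, *Ntsr2* and *Slc14a1* with the dimmest 40% left out, *Ntsr2* and *Slc14a1* without untreated replicate 2, and *Rela* without TNF-treated replicate 1. Without 1 array the direction turned in genes that did not pass the test and whose values lay near 0, over the ranges *Fabp7* −0.04 to 0.087, *Gadd45b* −0.142 to 0.114, *Gyg* −0.112 to 0.075, *Hes1* −0.064 to 0.123, *Ifit3* −0.061 to 0.117, *Mir146b* −0.138 to 0.102, *Neurod1* −0.106 to 0.235, *Pcna* −0.308 to 0.052, *Rsad2* −0.024 to 0.126, *Serpina3n* −0.302 to 0.101 and *Txn1* −0.039 to 0.007, and with cyclic loess *Mir146b* had 0.035. The cause of these shifts was not tested. With the dimmest 40% left out 0 genes of the complement list were called, since *C1s1* and *C1ra* fall among those left out. Dim probe sets such as those of *Mir146* and *Il6* lie near the lowest signals of the arrays, and 3 arrays a group limit every value.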

Other observations

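Single genes outside the lists, picked after seeing their values and sharing no one function, also passed the test at 48 h. *Ntn1*, which encodes the axon guidance cue netrin-1, had 11.32, 11.67 and 11.62 in TNF-treated and 9.74, 10.07 and 9.73 in untreated NSPs, and rose by 1.69 (SE 0.154, q = 9.04e-07). *Nrg1*, which encodes the ErbB ligand neuregulin 1, had 9.69, 9.81 and 9.28 in TNF-treated NSPs, against 8.17, 8.42 and 7.99 in untreated NSPs, and rose by 1.40 (SE 0.199, q = 0.000292). In both genes every TNF-treated array was above every untreated array. *Il1rap*, the accessory chain of the interleukin 1 receptor, had 9.59, 10.06 and 9.29 with TNF and 7.97, 8.65 and 8.13 without it, and rose by 1.40 (SE 0.246, q = 0.00334). *Apobec1*, a cytidine deaminase that edits RNA, had 11.47, 11.18 and 11.39 in TNF-treated and 9.81, 9.50 and 9.63 in untreated NSPs, and rose by 1.70 (SE 0.225, q = 0.000121). In the other direction, *Dner*, a Notch ligand of neurons, had 11.07, 11.26 and 11.11 in TNF-treated NSPs, against 12.05, 12.18 and 11.80 in untreated NSPs, and fell by 0.87 (SE 0.115, q = 0.000121), and *Sema6d*, a semaphorin, had 12.15, 12.09 and 12.04 with TNF and 12.72, 12.91 and 12.73 without it, and fell by 0.69 (SE 0.103, q = 0.000511). *Chgb*, a protein of secretory granules, had 6.62, 6.74 and 6.79 in TNF-treated and 7.49, 7.797 and 7.60 in untreated NSPs, and fell by 0.91 (SE 0.149, q = 0.00152). These calls held in each fit with 1 array left out.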
